A study of Mus musculus with 3 samples.

Results

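The nuclear genes of the mitochondrial respiratory chain were examined for H3K4me3, the histone mark of active promoters, at their transcript starts in mouse testis. Members were the autosomal protein-coding genes of the GENCODE annotation whose symbols begin with Nduf, Uqcr, Cox4i, Cox5, Cox6, Cox7, Cox8 or Atp5, together with Cycs and Cyct, and they made up 89 of 20807 autosomal protein-coding genes. The 89 gene records carry 88 symbols, because Atp5o has a pair of records. Another 3 genes with such symbols lie on the X chromosome (Cox7b, Ndufa1 and Ndufb11) and were left out. Each member was given the narrow peaks whose centre lay within 1 kb of any of its transcript starts, 93 of 101978 narrow peaks in all, and the peak with the most ChIP fragments was taken as its main peak.

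The study performed ChIP-seq for H3K4me3 in whole testes of adult (B6xCAST)F1-Prdm9 Hum/Cast males to chart where PRDM9 marks recombination hotspots. All 3 libraries, 2 ChIP replicates and 1 input chromatin library without antibody, came from this F1 hybrid of C57BL/6J and CAST/EiJ, with a humanised Prdm9 allele (its DNA-binding zinc fingers replaced by the human sequence) beside the CAST allele, so there was no second condition to compare. The series description gives the replicates as the testes of a single male, whereas the study's methods give them as a testis from each of a pair of littermates. If the first holds, the spread between the replicates is technical. Whole testis mixes germ cells of every stage with somatic cells, and in such a mixture fewer cells of a type and less of the mark per cell cannot be told apart.

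Oxidative phosphorylation passes electrons from NADH through complex I, ubiquinone, complex III, cytochrome c and complex IV to oxygen, and complex V uses the resulting proton gradient to make ATP. Most subunits are encoded in the nucleus, and several complex IV subunits and cytochrome c exist in forms used by particular tissues. Male germ cells have their own forms of cytochrome c (Cyct) and of complex IV subunits (Cox6b2, Cox7b2 and Cox8c), which replace or accompany the general forms (Cycs, Cox6b1, Cox7b and Cox8a).

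Summed over all narrow peaks, the ChIP replicates held 17621116 and 19094837 fragments and the input held 1250138, so values are compared within a library or as shares of these totals. Fragments at a gene are given for replicate 1, replicate 2 and the input, in that order. Narrow peaks lay at the starts of 9 of 10 germ cell marker genes (median enrichment 33.6), 5 of 6 Sertoli cell markers (11.0), 4 of 5 Leydig cell markers (11.0), 3 of 5 markers of myoid, vessel and blood cells (3.95) and 4 of 10 markers of other tissues (5.46). Over all autosomal protein-coding genes, 77.3% had such a peak. The germ cell marker without a narrow peak was Acrv1, which had a broad peak. The main peaks of Fshr (Sertoli, 882 bp from its start) and of Nphs1 and Tnnt2 (other tissues) lay outside the authors' PRDM9-independent regions. Cd68, in the myoid, vessel and blood group, had 6, 36 and 17 fragments. The share of each cell type in the tissue was not measured.

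Nearly every member carried the mark at its start. A narrow peak lay within 1 kb of a start in 86 of 89 members (96.6%), beside 77.3% of all autosomal protein-coding genes. A broad peak overlapped that window in 88 of 89 members, beside 80.1% of all genes. The deposited enrichment, the authors' estimate of signal over background from both replicates, was at least 10 in 83 members (93.3%), beside 63.3% of all genes. The median enrichment of the main peaks was 65.8 (interquartile range 55.1 to 85.7), and over all 16086 genes with a peak it was 37.9 (14.4 to 65.7). The level was close to that of other genes used by every cell, with a median of 71.5 over 72 cytosolic ribosomal protein genes and 69.6 over the 46 of 47 proteasome genes that had a peak. In fragments, the members' medians were 1394, 1479 and 21 for replicate 1, replicate 2 and the input, beside 756, 826 and 20 over all genes. Of the 89 members, 23 were among the tenth of genes with the highest enrichment.

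**Figure D1:**
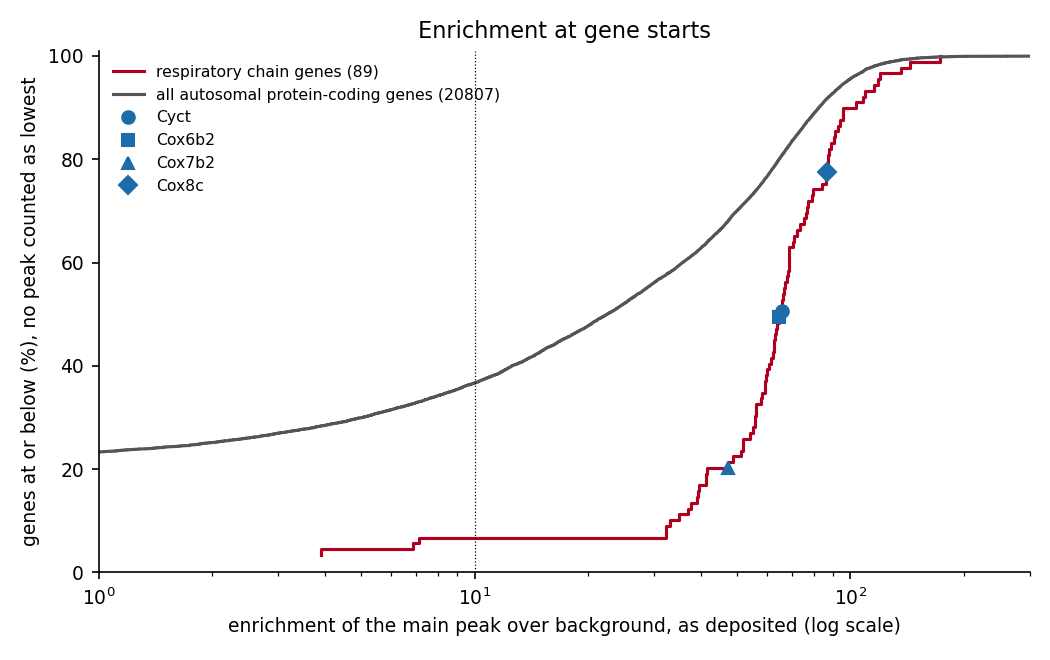
Cumulative share of genes (y axis, percent) by enrichment of the main peak over background (x axis, log scale) for the 89 respiratory chain genes and all 20807 autosomal protein-coding genes, with genes without a peak counted as lowest and an enrichment of 10 dotted. The respiratory chain curve is nearly flat up to 32.2, with 6 genes to the left, and the 4 testis forms (symbols on the curve) lie between 47.2 and 86.6.

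The testis forms were all marked, with enrichments inside the range of the general genes. Cyct, the cytochrome c of male germ cells, had 880, 936 and 13 fragments, and an enrichment of 65.6. Cycs, the cytochrome c of other cells, had 1511, 1480 and 26 fragments and an enrichment of 54.0. In fragments Cyct was thus below Cycs in both ChIP replicates, by 1.65-fold over the replicates together (exact Clopper-Pearson 95% interval 1.55 to 1.75), whereas its enrichment was the higher one, with 13 input fragments against 26. The Cycs peak lay 318 bp before the nearest start and the Cyct peak 207 bp downstream, so the positions compared were unlike. Intervals on fragment ratios cover counting error only.

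Cox6b2, the testis form of a small complex IV subunit, had 705, 806 and 11 fragments (enrichment 64.5). Its general counterpart Cox6b1 had 839, 954 and 9 (enrichment 93.7). The difference was small, 1.19-fold in favour of Cox6b1 (interval 1.11 to 1.27), with the same direction in both replicates and in the enrichment.

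Cox8c, the testis form of subunit VIII, had 951, 1075 and 11 fragments (enrichment 86.6). Cox8a, the form of most tissues, had 1862, 1968 and 25 (enrichment 72.0). Cox8c lay below Cox8a by 1.89-fold in fragments (interval 1.79 to 2.00), and above it in enrichment, as with cytochrome c. Cox7b2, the testis form of subunit VIIb, had 482, 623 and 11 fragments (enrichment 47.2), the lowest of the 4. Its counterpart Cox7b is X-linked and no member. It had 185, 224 and 5 fragments (enrichment 38.4), so Cox7b2 was 2.70-fold higher in fragments (interval 2.41 to 3.03). By enrichment the pair was closer, at 47.2 against 38.4, with 11 input fragments against 5. A male has a single copy of the X chromosome, and the part of copy number in the fragment ratio cannot be told apart from that of the mark.

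As a group, the 4 testis forms had median fragments of 792.5, 871 and 11, and the 82 other members with a peak had 1438.5, 1533.5 and 21. The median enrichments were 65.1 and 66.1. Input coverage thus differed between these genes in the same direction as ChIP coverage, and over all 86 members the rank correlation of ChIP with input fragments was 0.53, across genes that share the same 3 libraries. Among all autosomal protein-coding genes ranked by replicate 1 fragments, with genes without a peak lowest, Cox8c stood at percentile 67.0, Cyct at 65.0, Cox6b2 at 59.8 and Cox7b2 at 52.6.

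**Figure D2:**
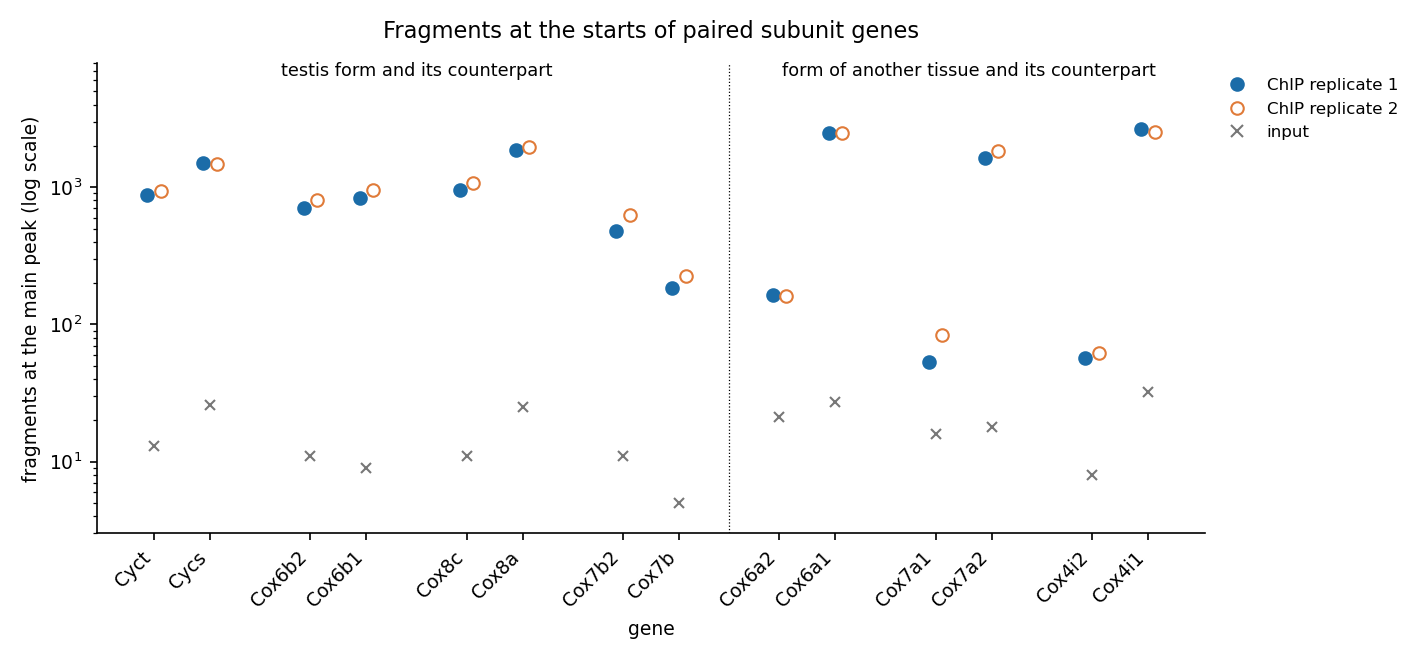
Fragments at the main peak (y axis, log scale) in ChIP replicate 1, ChIP replicate 2 and the input for 4 testis forms and 3 forms of other tissues, each beside its counterpart. Testis forms lie near their counterparts, while Cox6a2, Cox7a1 and Cox4i2 have between 53 and 164 fragments and their counterparts between 1620 and 2660.

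The promoters of Cyct and Cox6b2 hold fewer CpG dinucleotides than those of their counterparts, and these promoters and that of Cox7b2 are printed here from RefSeq (GRCm38.p6), 250 bases before to 50 after the annotated start, 5′ to 3′ on the gene's strand. Promoters of 72 member symbols were matched. Capitals mark matches, on either strand, to the motifs of NRF1 (GCGCANGCG), YY1 (AANATGGCG), ETS factors (CCGGAAG), CREB (the cyclic AMP response element, TGACGTCA) and ERR receptors (TCAAGGTCA), which are known regulators of respiratory chain genes. The first pair is Cyct (chr2:76360404-76360703, minus strand) and Cycs (chr6:50566520-50566819, minus strand).
Cyct: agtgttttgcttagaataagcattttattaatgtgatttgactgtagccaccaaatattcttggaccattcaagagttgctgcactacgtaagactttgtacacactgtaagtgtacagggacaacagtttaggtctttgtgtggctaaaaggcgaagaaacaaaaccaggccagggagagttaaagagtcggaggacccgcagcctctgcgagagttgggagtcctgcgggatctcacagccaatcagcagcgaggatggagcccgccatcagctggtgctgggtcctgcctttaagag
Cycs: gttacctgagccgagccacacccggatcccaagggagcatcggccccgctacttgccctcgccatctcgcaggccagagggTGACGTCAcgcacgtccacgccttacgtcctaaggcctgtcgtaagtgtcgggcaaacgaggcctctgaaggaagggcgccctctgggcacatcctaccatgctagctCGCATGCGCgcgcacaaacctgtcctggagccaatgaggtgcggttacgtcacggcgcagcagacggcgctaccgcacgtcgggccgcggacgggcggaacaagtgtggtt
Cycs holds a cyclic AMP response element beginning 169 bases before the start and an NRF1 match beginning 61 bases before it, whereas these letters do not occur in the Cyct window. The ratio of observed to expected CpG dinucleotides, which is near 1 where CpG is not depleted, was 1.01 for Cycs and 0.466 for Cyct. The second pair is Cox6b2 (chr7:4753045-4753344, minus strand) and Cox6b1 (chr7:30626065-30626364, minus strand), followed by Cox7b2 (chr5:71548156-71548455, minus strand).
Cox6b2: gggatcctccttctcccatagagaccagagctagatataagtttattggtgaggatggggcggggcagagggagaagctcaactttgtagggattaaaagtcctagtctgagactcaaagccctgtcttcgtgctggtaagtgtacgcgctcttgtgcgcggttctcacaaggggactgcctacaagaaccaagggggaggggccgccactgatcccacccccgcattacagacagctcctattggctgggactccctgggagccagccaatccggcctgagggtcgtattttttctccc
Cox6b1: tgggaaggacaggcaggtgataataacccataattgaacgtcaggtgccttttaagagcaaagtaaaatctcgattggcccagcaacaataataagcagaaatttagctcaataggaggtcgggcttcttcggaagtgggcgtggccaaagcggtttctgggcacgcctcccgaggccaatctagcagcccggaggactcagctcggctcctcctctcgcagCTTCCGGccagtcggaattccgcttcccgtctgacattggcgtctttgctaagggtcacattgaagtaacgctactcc
Cox7b2: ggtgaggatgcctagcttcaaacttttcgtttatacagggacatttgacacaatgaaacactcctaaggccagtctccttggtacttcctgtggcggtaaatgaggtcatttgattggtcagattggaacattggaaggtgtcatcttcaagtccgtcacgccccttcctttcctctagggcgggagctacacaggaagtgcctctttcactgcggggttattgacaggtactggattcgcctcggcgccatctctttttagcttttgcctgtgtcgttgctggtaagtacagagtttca
Cox6b1 holds an ETS match beginning 28 bases before the start, and none of the 5 motifs was found in Cox6b2 or Cox7b2. Their CpG ratios were 0.432 (Cox6b2) and 0.564 (Cox7b2), beside 0.807 for Cox6b1 and 0.842 for Cox8a. The 77 matched member promoters had a median CpG ratio of 0.829 (interquartile range 0.678 to 0.948), and the 19370 promoters matched to autosomal protein-coding genes had a median of 0.602 (0.244 to 0.840). The 3 testis forms with a matched promoter thus lay below the members' lower quartile while carrying an enrichment near the members' median or, for Cox7b2, below their lower quartile. In ChIP fragments all 3 lay below the members' medians of 1394 in replicate 1 and 1479 in replicate 2. The low CpG ratios thus went with fewer fragments than the median member, and with a typical enrichment for Cyct and Cox6b2 alone.

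The 4 complex IV forms used mainly by other tissues had few fragments at their main peak, or no narrow peak. Cox6a2, the heart and skeletal muscle form of subunit VIa, had 164, 160 and 21 fragments, with a main peak 525 bp downstream of its start. Its broad peak was 9000 bp wide and also covered the start of Itgad. The general form Cox6a1 had 2474, 2480 and 27, which is 15.3-fold more (exact interval 13.7 to 17.2). Cox7a1, the muscle form of subunit VIIa, had 53, 84 and 16 fragments, the lowest enrichment of all members with a peak (3.90). Its counterpart Cox7a2 had 1620, 1850 and 18 fragments, 25.3-fold more (21.3 to 30.3), and an enrichment of 90.6. Cox4i2, a form of subunit IV known from lung and from cells short of oxygen, had 57, 62 and 8 fragments, and the general Cox4i1 had 2660, 2535 and 32, 43.7-fold more (36.4 to 52.8). By enrichment the Cox4i pair was closer, with 6.87 for Cox4i2 and 76.3 for Cox4i1, 11.1-fold apart, while the Cox6a and Cox7a pairs were 12.1-fold and 23.3-fold apart. The Cox4i1 peak lay 350 bp before its start and 36 bp from the start of Emc8, a neighbour on the opposite strand, so its fragments cannot be assigned to Cox4i1 alone. Cox8b, the muscle form of subunit VIII, had no narrow peak within 1 kb, and its broad peak of 1800 bp did not cover the start. These 4 genes and 2 others without a peak were the members that did not reach an enrichment of 10.

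The Cox7a1 promoter is shown beside that of Uqcrfs1, the member of highest enrichment, because they stand at the ends of the range (Cox7a1 chr7:30183921-30184220, plus strand, and Uqcrfs1 chr13:30545267-30545566, minus strand, with capitals as before).
Cox7a1: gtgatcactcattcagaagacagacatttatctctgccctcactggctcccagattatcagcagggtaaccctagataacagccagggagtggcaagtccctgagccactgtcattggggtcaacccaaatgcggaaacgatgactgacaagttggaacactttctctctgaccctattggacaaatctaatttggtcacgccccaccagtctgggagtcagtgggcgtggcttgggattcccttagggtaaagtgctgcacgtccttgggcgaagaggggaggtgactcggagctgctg
Uqcrfs1: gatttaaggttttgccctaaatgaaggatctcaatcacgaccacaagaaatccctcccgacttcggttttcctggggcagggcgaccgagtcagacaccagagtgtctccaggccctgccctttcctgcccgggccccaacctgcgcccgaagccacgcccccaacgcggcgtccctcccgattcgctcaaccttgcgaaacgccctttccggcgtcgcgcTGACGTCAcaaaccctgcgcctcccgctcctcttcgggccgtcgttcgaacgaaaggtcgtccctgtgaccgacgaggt
The CpG ratio was 0.333 for Cox7a1 and 1.12 for Uqcrfs1, which holds a cyclic AMP response element beginning 29 bases before the start. Cox8b had the lowest ratio of the matched members, 0.115.

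The other members with no narrow peak were Ndufa4l2 and the second record of Atp5o. Ndufa4l2, a relative of Ndufa4 known as a target of hypoxia signalling, had a broad peak of 11800 bp over its start, which also covered the start of Stac3. The second Atp5o record had neither kind of peak, while the first, which encodes the subunit that holds the peripheral stalk to the head of complex V, had 1753, 1768 and 14 fragments. At the 1 kb limit, the farthest main peaks inside were those of Uqcrh (598 bp before the start), Cox6a2 and Atp5h (513 bp before). The nearest ones outside were a peak 1347 bp before the Cox8b start (50, 57 and 2 fragments, PRDM9-dependent) and one 1785 bp after the Ndufa4l2 start (286, 276 and 20 fragments).

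The 36 complex I genes, encoding core and accessory subunits of the NADH dehydrogenase, had main peaks in 35 of 36 cases, with a median enrichment of 63.0. The highest were the accessory subunits Ndufb5 (2601, 2510 and 22 fragments, enrichment 109.2), Ndufa12 (1262, 1379 and 13, enrichment 95.5) and Ndufs4 (1767, 1918 and 19, enrichment 91.2). The lowest were Ndufv3, an accessory subunit of the NADH-binding module (427, 535 and 14, enrichment 32.2), Ndufs8, a core subunit with iron-sulfur clusters (807, 844 and 24, enrichment 32.3), and Ndufa13, also known as GRIM-19 (1080, 972 and 29, enrichment 33.2). The Ndufb5 peak lay 217 bp from the start of Mrpl47 on the opposite strand, slightly nearer than to its own. The Ndufa13 peak lay 34 bp from the start of Yjefn3 and 120 bp before its own. The core subunits Ndufs1, Ndufs3, Ndufs7, Ndufv1 and Ndufv2 lay between, at 63.4 to 75.1. Ndufa4, which carries a complex I name but is known as a complex IV subunit, had an enrichment of 41.2.

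The 8 assembly factors of complex I, which build the enzyme without being part of it, all had a peak (median enrichment 59.8). Ndufaf2 had the highest of these (1466, 1723 and 11 fragments, enrichment 136.4), but its peak lay 289 bp before its start and 108 bp from that of Ercc8, a DNA repair gene on the opposite strand. Ndufaf4 had the lowest (923, 1008 and 24, enrichment 37.7).

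Complex III had the second highest median enrichment of the complexes, 75.7 over its 8 genes, all with a peak. Uqcrfs1, the Rieske iron-sulfur protein that hands electrons towards cytochrome c, had 3020, 2885 and 16 fragments, and its enrichment of 173.6 was the highest of all members. Uqcrh, the hinge protein, followed with 2469, 2614 and 20 fragments (enrichment 119.5), and Uqcrb, the ubiquinone-binding protein, with 1136, 1318 and 10 (enrichment 115.4). Both of these peaks lay nearer to a neighbour's start than to the member's own. The Uqcrh peak was 124 bp from Lrrc41, and the Uqcrb peak was 127 bp from Gm10767 and 337 bp from its own start. The lowest were the small subunits Uqcr11 (999, 1091 and 25, enrichment 39.2) and Uqcr10 (1141, 1260 and 17, enrichment 66.4) and the core protein Uqcrc2 (2327, 2357 and 33, enrichment 66.7). The order by enrichment differed from that by fragments, since Uqcrc2 had more fragments than Uqcrb but a higher input.

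Complex IV held both ends of the fragment counts. Its 17 genes had the highest median enrichment of the complexes, 81.3 over the 16 with a peak, although only 13 of 17 reached 10. Cox7a2l, which joins complexes III and IV into supercomplexes, had 1726, 1943 and 12 fragments (enrichment 143.8). Cox6c had 2107, 2260 and 19 (enrichment 108.1), and Cox5b, a subunit on the matrix side, had 1810, 1930 and 17 (enrichment 103.4). Cox5a had the most fragments of any member, 3376, 3266 and 44, with an enrichment of 70.9. The lowest 3 were the tissue forms Cox7a1, Cox4i2 and Cox6a2.

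Complex V, the ATP synthase, had peaks at 17 of 18 genes, with a median enrichment of 62.2. The highest were Atp5o (enrichment 118.3), Atp5l, subunit g of the membrane part (2054, 2009 and 20 fragments, enrichment 95.5), and Atp5h, subunit d of the peripheral stalk (1301, 1460 and 15, enrichment 86.5). The Atp5h peak lay 513 bp before its own start and 163 bp from that of Kctd2 on the opposite strand. The lowest were Atp5mpl, a small proteolipid of the membrane part (824, 965 and 24, enrichment 35.0), Atp5g1 (555, 627 and 15, enrichment 37.0) and Atp5d, the delta subunit of the head (1088, 1165 and 27, enrichment 39.2). Atp5g1, Atp5g2 and Atp5g3 encode the same mature subunit c, and their fragments ranked alike in both replicates, from 555 and 627 for Atp5g1 through 1043 and 898 for Atp5g2 to 1593 and 1684 for Atp5g3.

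**Figure D3:**
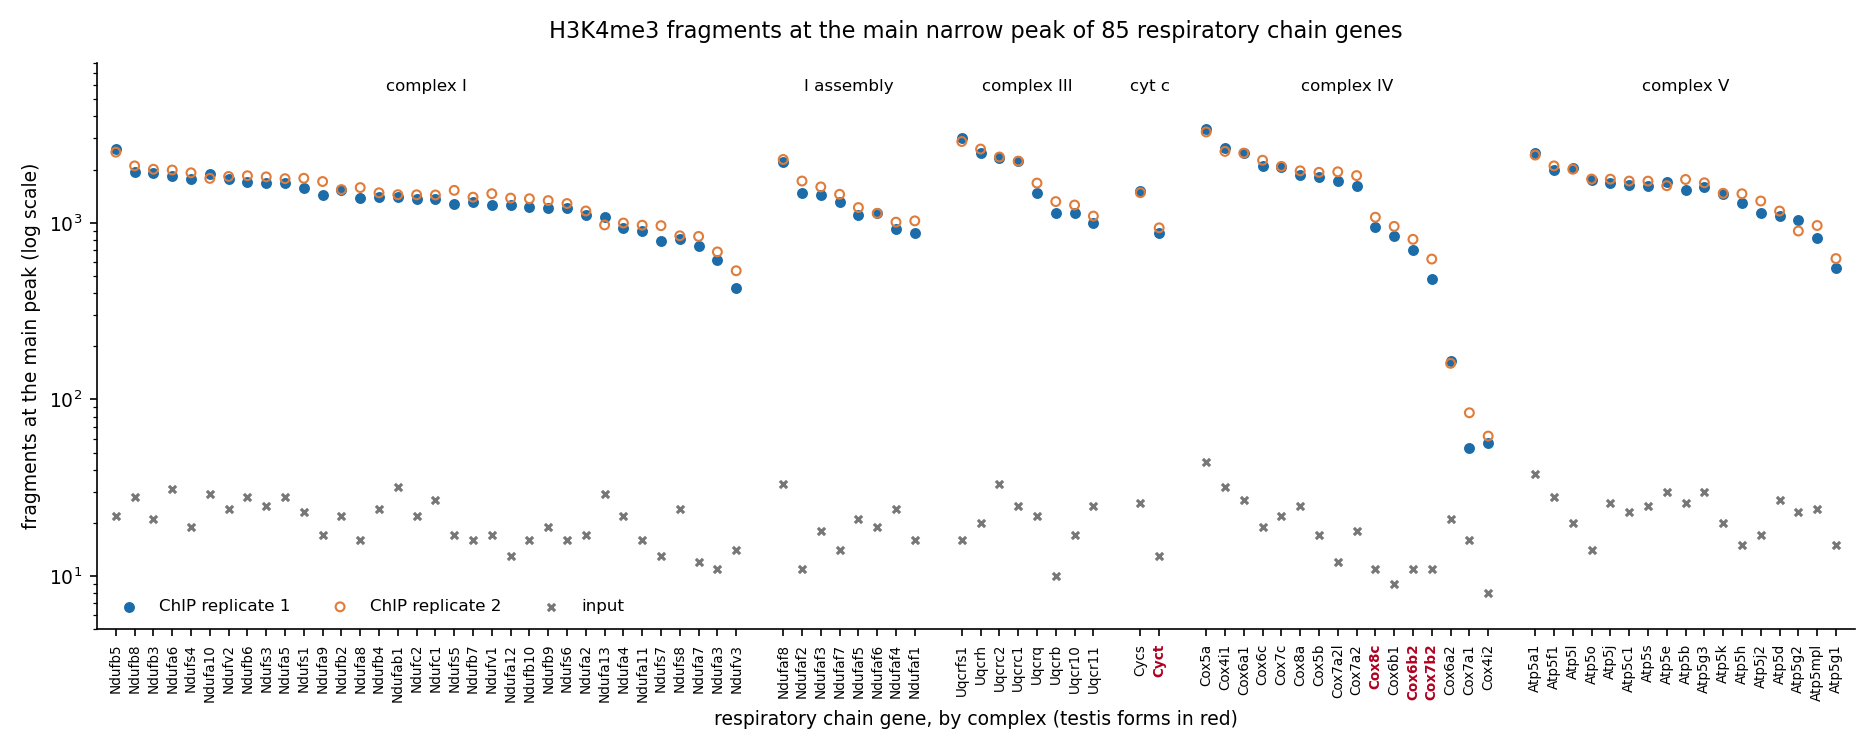
Fragments at the main peak (y axis, log scale) of 85 of the 86 members with a peak, grouped by complex and ordered by ChIP fragments, in ChIP replicate 1, ChIP replicate 2 and the input; testis forms are named in red. All ChIP values lie above the input, from 53 and 62 fragments at the low end to 3376 and 3266 for Cox5a, and the step to Cox6a2, Cox7a1 and Cox4i2 is the only wide gap.

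None of the 86 main peaks was PRDM9-dependent, that is, outside the authors' regions that carry the mark in mice with differing Prdm9 alleles, beside 7.79% of the main peaks of all genes with one. None of the main peaks of the 72 cytosolic ribosomal protein genes and 46 proteasome genes was PRDM9-dependent either. A second, weaker narrow peak that was PRDM9-dependent lay within 1 kb of an alternative start in 5 of the 86 members with a peak (5.81%), beside 12.1% of all genes with one. At Atp5mpl it had 49, 50 and 14 fragments (enrichment 3.20), at Ndufab1, the mitochondrial acyl carrier protein, 40, 44 and 11 (3.46), and at Cox7a2l 9, 9 and 3 (2.69). At Ndufv3 it had 15, 25 and 10 (1.75). Over all 62533 PRDM9-dependent narrow peaks the median enrichment was 2.79.

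Main peaks lay mostly just downstream of a start, where the first nucleosomes of a transcribed gene sit. The median distance was 129.5 bp downstream (129 bp over all genes), 68 of 86 peaks (79.1%) lay downstream (77.4%), and 64 (74.4%) lay within 300 bp downstream (62.6%). The last share was 81.9% for the cytosolic ribosomal protein genes and 73.9% for the proteasome genes. With distances taken to the nearest of any transcript start, 3 of the 8 complex III peaks lay downstream, with a median 65 bp before the start. The 2 cytochrome c genes had a median 55.5 bp before it. The Uqcr10 and Uqcrc1 peaks, counted as upstream here, lay downstream of their matched RefSeq promoter windows.

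Another protein-coding start lay within 1 kb in 34 members (38.2%), beside 14.9% of all genes. This count holds both Atp5o records, each as the other's neighbour, and with starts of a different symbol alone it was 32 members (36.0%) beside 14.8%. In 31 members the neighbour was on the opposite strand. The share of all genes with an opposite-strand neighbour was not counted, and whether the pairs are transcribed apart or towards each other was not checked. Such partners included Haus1 for Atp5a1, Wdr77 for Atp5f1, Gabpa for Atp5j, Rps28 for Ndufa7, Mrpl36 for Ndufs6 and Eef1b2 for Ndufs1. In 12 of the 86 members with a peak (14.0%), beside 8.44% of all genes with one, the main peak was nearer to another protein-coding gene's start than to the member's own. They included Uqcrh (124 bp from Lrrc41), Ndufs1 (74 bp from Eef1b2) and Ndufa7 (38 bp from Rps28). The mark at such starts cannot be told apart between the partners. The median enrichment was 65.7 for the 31 members with an opposite-strand partner and 65.8 for the 55 without, and 20 of 31 against 48 of 55 main peaks lay downstream.

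**Figure D4:**
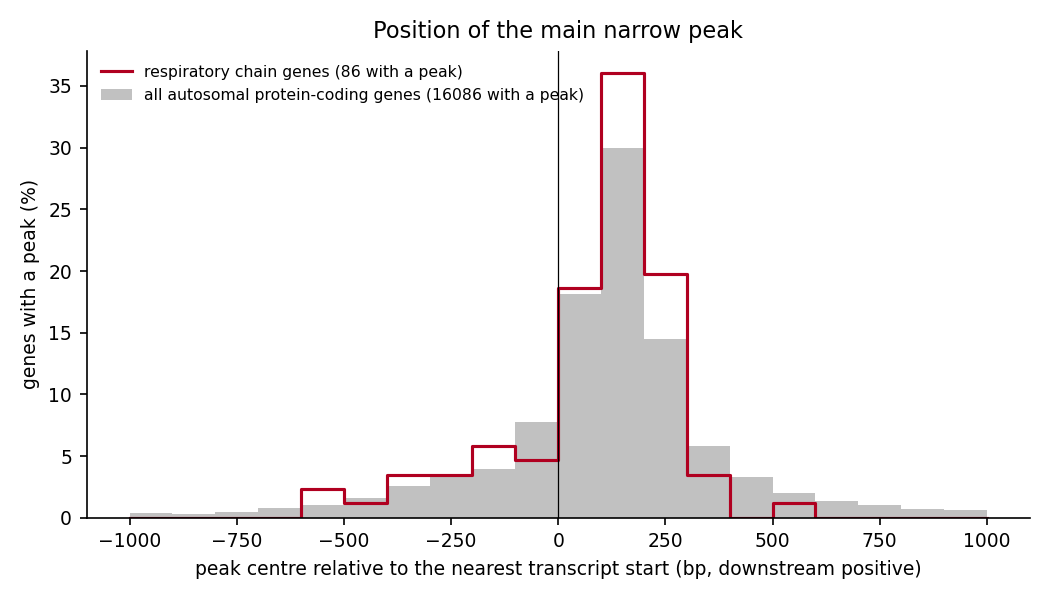
Share of genes with a peak (y axis, percent) by distance of the main peak centre from the nearest transcript start (x axis, bp, downstream positive, in bins of 100 bp) for the 86 respiratory chain genes (line) and all 16086 genes (bars). Both peak between 100 and 200 bp downstream, and the members have 74.4% of peaks within 300 bp downstream beside 62.6%.

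The broad peaks at members had a median width of 3300 bp (interquartile range 2300 to 4300), as had those of all genes (3300, 2100 to 5300). The widest were at Atp5b, the catalytic beta subunit of complex V (18200 bp), Ndufaf3 (14100 bp) and Atp5mpl (13300 bp). Each also covered the start of another gene, which was Baz2a at Atp5b, Impdh2 and Dalrd3 at Ndufaf3 and Tdrd9, a germ cell gene, at Atp5mpl. Of the 9 members with a broad peak over 8000 bp, 8 shared it with another gene's start, beside 53.7% of the 1762 genes with so wide a peak, and the exception was Uqcrfs1 (10300 bp). The narrowest were at Cox4i2 and Cox7a1 (both 1200 bp) and Ndufaf6 (1500 bp). Width and ChIP fragments had a rank correlation of 0.28 over the 86 members, across genes of the same libraries.

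The replicates gave nearly the same order of members, with a rank correlation of 0.988 over 86 main peaks. Fragments at 8 of the 86 members (9.30%) differed between the replicates by more than counting error (two-sided exact binomial test against the library totals, Benjamini-Hochberg adjusted over all 101978 peaks), beside 4.4% of all genes with a peak. The 5 with the smallest adjusted p were Atp5g2 (0.000271), Uqcrfs1 (0.00067), Cox4i1 (0.00153), Cox5a (0.00155) and Ndufa13 (0.00749). Relative to the totals, replicate 2 was below replicate 1 in all 8, with a log2 ratio of -0.33 at Atp5g2 and -0.18 at Uqcrfs1. The share of peaks called rose with coverage, from 0.0575% of peaks under 100 ChIP fragments to 14.9% of those with at least 4000, and the median log2 ratio went from 0.12 to -0.06 over the same classes. With the variance widened to the spread between replicates at PRDM9-independent peaks of like coverage, no member passed, and 6 had an unadjusted p under 0.05 in place of 25. None of the testis forms was among the 8.

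Sequence motifs were counted in the matched promoters as a description. NRF1 letters were present in 22 of 77 member promoters (28.6%), beside 9.02% of promoters of autosomal protein-coding genes and 6.25% of all 32851 promoters in the table. YY1 letters were present in 13.0% (3.21% and 2.38%), ETS letters in 20.8% (12.1% and 8.86%) and the cyclic AMP response element in 6.49% (2.37% and 1.79%), which was at Cycs, Ndufa10, Ndufa11, Ndufb2 and Uqcrfs1. ERR letters occurred at Atp5g3 alone among the members, and the GC box (GGGCGG) was in 44.2% of member promoters beside 48.1%. No motif was required to overlap another, and GCGCANGCG itself holds CpG, in which the members' promoters are richer. Members with and without NRF1 letters had median enrichments of 68.8 (21 genes) and 65.8 (50 genes). With and without YY1 letters the medians were 63.6 and 66.4, and for ETS letters they were 67.3 and 65.8. Over the 71 members with a matched promoter and a peak, the CpG ratio and ChIP fragments had a rank correlation of 0.34, and of 0.32 without Cox7a1.

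**Figure D5:**
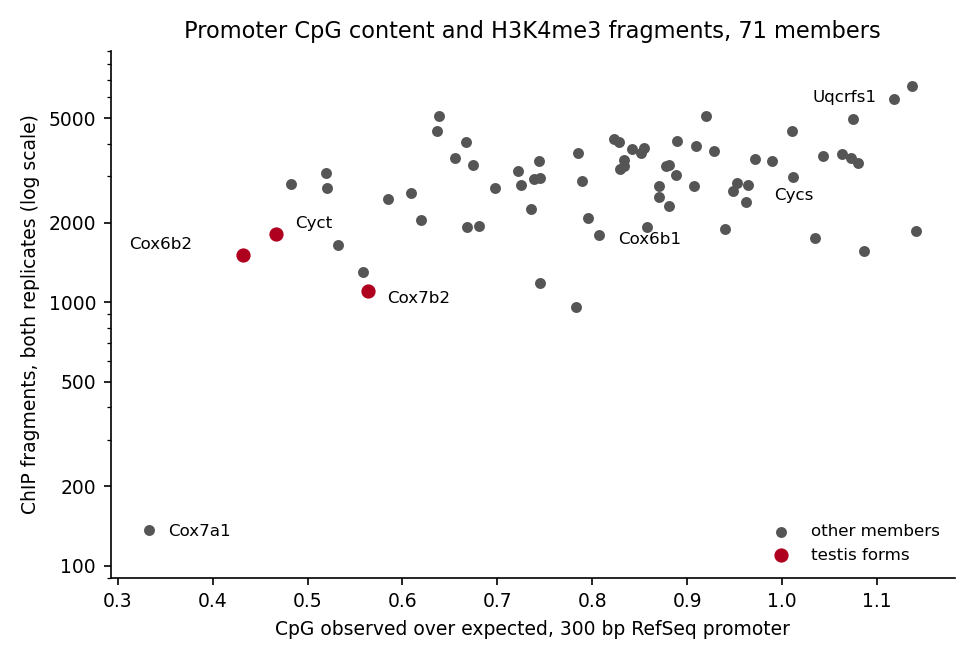
ChIP fragments of both replicates at the main peak (y axis, log scale) against the observed over expected CpG ratio of the 300 bp promoter (x axis) for 71 members, with 3 testis forms in red. Cyct, Cox6b2 and Cox7b2 lie at ratios of 0.466, 0.432 and 0.564 with far more fragments than Cox7a1, which has a ratio of 0.333.

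Other genes of the respiratory chain and its regulation carried the mark about as often. Of 33 listed genes, 32 had a narrow peak, all 32 with an enrichment of at least 10, and the median was 68.2. The 4 subunits of complex II, Sdha, Sdhb, Sdhc and Sdhd, ranged from 57.1 to 126.4, and Cox18, which inserts a complex IV subunit into the membrane, reached 163.9. The exception without a narrow peak was Ppargc1a, the coactivator that drives mitochondrial biogenesis in muscle and brown fat. A broad peak of 1900 bp overlapped the 1 kb window round its start. Its relative Ppargc1b had 405, 399 and 27 fragments (enrichment 13.9). Among the regulators of these genes, Nrf1 had an enrichment of 59.6, Tfam 80.7, Yy1 88.8 and Gabpa, which shares its peak with Atp5j, 62.2. Of the ADP/ATP carriers that serve complex V, the listed genes held a testis form and a muscle form, not a general one. Slc25a31, the male germ cell form, had 1713, 1772 and 25 fragments (enrichment 65.5). Slc25a4, the heart and muscle form, had 423, 500 and 16 (enrichment 27.0).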

How the data were processed

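H3K4me3 ChIP-seq libraries of mouse testis were sequenced as read pairs and, per the labels and the study's methods, aligned by the authors to mm10 with BWA and Stampy, cleared of duplicates with SAMtools and converted to fragment coverage with bedtools. Peaks were called on both replicates together with the authors' likelihood-ratio caller. The deposited coverage signal of a narrow peak is the number of fragments of each library over its centre, not normalised. The deposited enrichment is a ratio to background estimated by the authors from both replicates, and the deposited p-value comes from their likelihood-ratio test. For broad peaks and for regions marked independently of PRDM9, the authors gave coordinates alone.

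Peaks were joined to GENCODE vM21 transcript starts within 1 kb (Python 3.11.15, pandas 2.3.3, numpy 2.4.6, scipy 1.17.1). The mark has no comparison group here, so the only test across peaks was the exact binomial test between the replicates, which was tested on simulated data. The simulated replicates held counting error only, so they could not show how the test behaves under a wider spread. Gene levels and gene lists were described by counts and medians. Genes named in the text were the testis and tissue forms with their counterparts, members without a peak, the 3 highest and 3 lowest enrichments of each complex, the 3 widest and 3 narrowest broad peaks and the 5 clearest replicate differences. The promoters printed, the CpG ratios, the Atp5g and core subunit values, the partners named at shared starts and the genes named from the wider lists were chosen after their values were seen. The members and lists were chosen with earlier results of these data known. Alternatives changed the distance, the choice of main peak, the replicate used and the test. Promoters came from RefSeq and were matched through gene identifiers. The values of 1 member are not reported here, though it is counted in the totals.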

Additional observations from a re-analysis of the deposited data

How the results depend on the processing

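No paired analysis was possible because the replicates belong to a single group and the input is 1 library. Of 54 alternatives, 36 left a value within its limit. The log2 ratio of Cyct to Cycs (-0.72) became 0.28 and that of Cox8c to Cox8a (-0.92) became 0.27 when enrichment replaced fragments, and those of Cox6b2 to Cox6b1 (-0.25) and Cox7b2 to Cox7b (1.43) became -0.54 and 0.30. With 1 replicate scaled to the input's total, the members' median enrichment was 4.52 to 4.53 (2.59 to 2.60 over all genes) and 1 member reached 10 with either replicate, because this scale removes the difference in totals. Counting members without a peak as 0 gave a median of 65.6, a distance of 500 bp gave 65.7 and 2 kb gave 65.7. The members with a narrow peak numbered 83 at 500 bp (without Atp5h, Cox6a2 and Uqcrh), 88 at 2 kb and 85 with protein-coding transcripts only (without Atp5f1). Replicates differed at 13 members with the expected share taken from PRDM9-independent peaks, and at 0 with the variance inflated. The summed width of broad peaks had a median of 3400 bp. The median distance was 163 bp from protein-coding transcript starts and 127 bp with the main peak nearest to a start. Low input coverage, 8 to 44 fragments at the members' peaks, limits the enrichment.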
